A study of Mus musculus with 13 samples.

Results

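The genes of the mitochondrial ribosomal proteins were followed through 13 bulk RNA-seq libraries of mouse CD4+ T cells. They were taken as all rows of the raw expression table whose symbol begins with Mrpl or Mrps followed by a digit, without the 6 rows marked -ps as pseudogenes. This gave 78 of 55774 gene entries, 49 Mrpl and 29 Mrps, and no expression value entered the choice. All 78 passed the filter on low counts, which left 15781 genes to test, and each of the 78 had counts in all 13 libraries.

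The T cells were naive CD4+ cells from the spleens of female mice of the strain NOD/ShiLtJ that carry TcraBDC2.5 and TcrbBDC2.5, the transgenes of the line known as 1Doi/DoiJ. These encode 1 T cell receptor that recognises an antigen of beta cells, and all groups share it. In 4 libraries the cells were alone and untreated. In 4 others they had spent 96 hours with islet macrophages of control NOD mice, which had been injected with buffer at 4 weeks of age. In the last 5 the macrophages came from the islets of NOD mice given streptozotocin (STZ), a toxin of beta cells, once and at a low dose at the same age. Islets were taken 10 days after the injection, when the mice were 5.5 weeks old, and macrophages were enriched from them with beads. The T cells were sorted afterwards as live cells positive for CD45, Thy1.2 and CD4. Replicates are labelled as biological, and each library carries a batch label, day 1 or day 2, with no word on the step that the day refers to. Day 1 held the 4 libraries of cells alone, control-macrophage replicates 1, 2 and 4 and STZ-macrophage replicates 1 and 5. Day 2 held control-macrophage replicate 3 and STZ-macrophage replicates 2, 3 and 4. Since the labels leave out whether the cells alone spent time in culture, culture and contact with macrophages cannot be told apart in a comparison with them.

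Mitochondria keep their own ribosomes, which translate only the 13 proteins encoded in mitochondrial DNA, all of them subunits of the respiratory chain or the ATP synthase. The ribosomal RNAs come from mitochondrial DNA, while the proteins of the particle are encoded in the nucleus, made in the cytosol and imported. Mrps genes are named for the small subunit, which reads the mRNA, and Mrpl genes for the large subunit, which joins the amino acids. Many of these proteins have counterparts in bacterial ribosomes, and the others were added in the evolution of mitochondria. T cells that leave the resting state enlarge their mitochondria, and mitochondrial translation is known to be needed for their proliferation and effector functions.

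Promoter windows of 250 bases before to 50 bases after the RefSeq start site (build GRCm38.p6) were matched by symbol for 69 of the 78 genes, in 75 windows. They were searched on both strands for motifs of 4 kinds known from nuclear genes of mitochondria. These were the NRF1 core (GCGC, any base, then TGCGC), an ETS motif of the kind bound by GABP (CCGGAAG), a YY1 motif (AAGATGGCG) and the E-box (CACGTG). The fixed letters of no motif hold another motif whole. The windows of 6 genes are shown because these genes had large or well-replicated differences between the groups and carry different motifs. Each is given 5′ to 3′ on the strand of its gene in lower case, with motif letters in capitals wherever they were found on either strand. The window of Mrpl18 lies at chr17:12916042-12916341 on the minus strand, that of Mrpl51 at chr6:125191950-125192249 on the plus strand and that of Mrpl45 at chr11:97315466-97315765 on the plus strand. The window of Mrpl52 lies at chr14:54426659-54426958 on the plus strand, that of Mrpl42 at chr10:95501900-95502199 on the minus strand and that of Mrps11 at chr7:78782881-78783180 on the plus strand.
Mrpl18: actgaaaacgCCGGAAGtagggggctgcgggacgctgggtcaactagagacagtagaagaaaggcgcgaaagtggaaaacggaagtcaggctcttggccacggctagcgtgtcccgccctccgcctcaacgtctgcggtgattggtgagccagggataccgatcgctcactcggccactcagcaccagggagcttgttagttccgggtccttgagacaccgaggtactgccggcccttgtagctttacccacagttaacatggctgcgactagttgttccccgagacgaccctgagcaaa
Mrpl51: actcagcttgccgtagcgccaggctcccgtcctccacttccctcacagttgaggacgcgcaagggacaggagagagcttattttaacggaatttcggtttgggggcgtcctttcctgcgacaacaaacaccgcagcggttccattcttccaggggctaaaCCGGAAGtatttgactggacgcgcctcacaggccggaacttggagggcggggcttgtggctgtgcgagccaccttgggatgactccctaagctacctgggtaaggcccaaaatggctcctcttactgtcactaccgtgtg
Mrpl45: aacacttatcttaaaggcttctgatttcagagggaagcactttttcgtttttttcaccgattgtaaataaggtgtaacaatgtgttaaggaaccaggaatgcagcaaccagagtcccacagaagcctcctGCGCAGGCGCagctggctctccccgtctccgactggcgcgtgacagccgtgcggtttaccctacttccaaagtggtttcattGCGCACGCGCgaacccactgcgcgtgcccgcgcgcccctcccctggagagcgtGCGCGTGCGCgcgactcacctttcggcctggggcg
Mrpl52: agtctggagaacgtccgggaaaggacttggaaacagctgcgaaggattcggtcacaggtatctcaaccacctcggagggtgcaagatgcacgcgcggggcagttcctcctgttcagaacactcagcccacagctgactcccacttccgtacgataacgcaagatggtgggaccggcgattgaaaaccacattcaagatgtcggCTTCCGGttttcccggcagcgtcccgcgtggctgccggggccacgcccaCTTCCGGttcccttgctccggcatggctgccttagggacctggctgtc
Mrpl42: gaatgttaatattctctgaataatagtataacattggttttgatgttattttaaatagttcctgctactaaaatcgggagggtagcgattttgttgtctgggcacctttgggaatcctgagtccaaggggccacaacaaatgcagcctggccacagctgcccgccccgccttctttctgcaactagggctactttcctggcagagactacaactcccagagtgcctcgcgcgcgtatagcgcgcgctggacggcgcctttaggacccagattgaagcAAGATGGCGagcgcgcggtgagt
Mrps11: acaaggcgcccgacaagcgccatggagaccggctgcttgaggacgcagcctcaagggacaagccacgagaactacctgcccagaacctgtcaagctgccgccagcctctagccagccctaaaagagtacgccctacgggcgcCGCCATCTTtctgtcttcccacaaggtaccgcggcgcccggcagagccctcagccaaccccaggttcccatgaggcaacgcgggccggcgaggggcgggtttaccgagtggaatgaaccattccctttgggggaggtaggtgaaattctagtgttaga
The capitals are 1 ETS match in Mrpl18 and 1 in Mrpl51, 3 NRF1 cores in Mrpl45, 2 ETS matches in Mrpl52, and 1 YY1 match each in Mrpl42 and Mrps11. In Mrpl42 the YY1 letters begin 27 bases after the start site, and in Mrps11 they lie before it. The window of Mrps11 overlaps that of Mrpl46, which is read in the opposite direction from chr7:78783040-78783339 on the minus strand.

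Over all members, the ETS letters were in 34.67% of the windows, compared with 18.12% of the 12685 windows of tested genes and 8.858% of all 32851 windows in the RefSeq table. The YY1 letters were in 10.67% of the members' windows, against 2.996% of those of tested genes. The NRF1 core was in 17.33% against 10.05%. The E-box was in 9.333% of the members' windows and in 9.87% of those of tested genes, so its share was no higher in the members. At least 1 of the NRF1, ETS and YY1 motifs was in 41 of the 75 windows (54.67%), against 28.01% of those of tested genes and 13.55% of all windows. A match describes the letters of the window, and no binding was measured here.

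**Figure D1:**
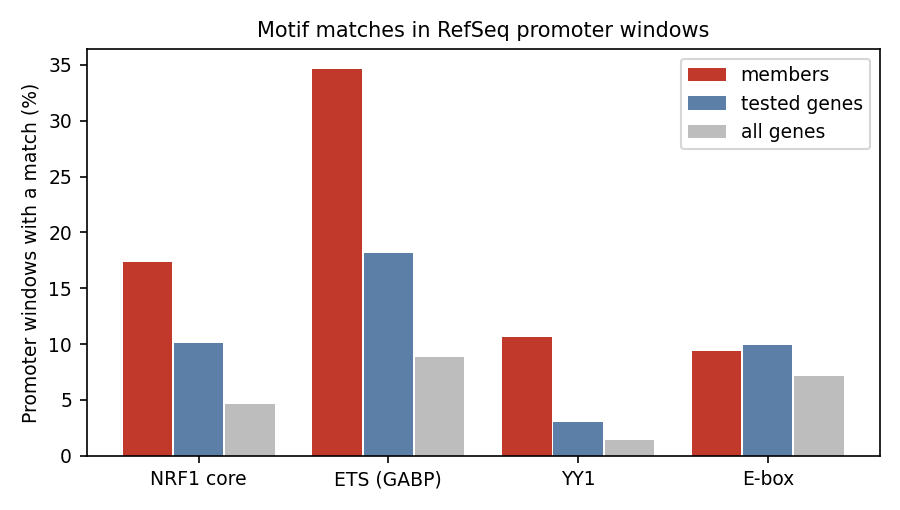
Share of RefSeq promoter windows (percent, vertical axis) that hold each motif on either strand, for the members, the tested genes and all genes. The members' bar is the tallest for the NRF1 core, ETS and YY1 letters, 17.33%, 34.67% and 10.67%, and not for the E-box, 9.333%.

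The libraries held 17312119 to 61267763 estimated counts. Levels are given as CPM, each count relative to the size of its library after TMM scaling, which aligns the libraries on the bulk of their genes. Each of the 8 T cell markers had counts in all libraries, with a summed level of 7260 to 22316 CPM. The 10 macrophage markers summed to 2.82 to 13.1 CPM in cells alone, 6.88 to 55.3 CPM in control-macrophage and 19.9 to 110.4 CPM in STZ-macrophage co-culture. Of these markers, 3 to 6 were at 0 in a library of cells alone, 0 or 1 in a control-macrophage library and 0 in the STZ-macrophage libraries. Islet endocrine markers reached 149.8 and 110.2 CPM in STZ-macrophage replicates 2 and 4 and stayed at or below 3.09 CPM in the others. B cell markers summed to 5.64 to 21.0 CPM in cells alone and to 1.71 CPM or less in the co-cultures. These levels moved with the groups, and their part in the results was not tested. In bulk RNA, fewer cells of a type and less RNA per cell cannot be told apart.

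The summed level of the 78 genes was 3184, 2569, 3095 and 2585 CPM in the 4 libraries of cells alone. It was 4779, 5331, 6769.8 and 5386 CPM in control-macrophage replicates 1 to 4 and 4483, 5710.5, 5809, 5760.0 and 4727 CPM in STZ-macrophage replicates 1 to 5. The cells alone lay below all co-cultures, and the 2 co-cultures overlapped. The group means were 2858 ± 327 CPM (SD, n = 4), 5567 ± 848 CPM (SD, n = 4) and 5298 ± 639 CPM (SD, n = 5). Within the co-cultures, the 4 libraries of day 2 lay above the 5 of day 1, with 5710.5 to 6769.8 CPM against 4483 to 5386 CPM. The day 1 co-cultures alone were still above the cells alone, which were all of day 1. As a share of all counts, without TMM, the members took 0.283 to 0.359% in cells alone, 0.454 to 0.530% in control-macrophage and 0.470 to 0.560% in STZ-macrophage co-culture. Split by symbol, the Mrpl genes summed to 1669 to 2149.9 CPM in cells alone, 3348 to 4620.0 CPM with control macrophages and 3137 to 4074 CPM with STZ macrophages. The Mrps genes summed to 842 to 1087 CPM, 1431 to 2149.8 CPM and 1347 to 1762 CPM in the same order. Both sums set the cells alone apart from the co-cultures. The Mrps sum includes Mrps18a, Mrps30 and Mrps36, which are not known as proteins of the small subunit.

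**Figure D2:**
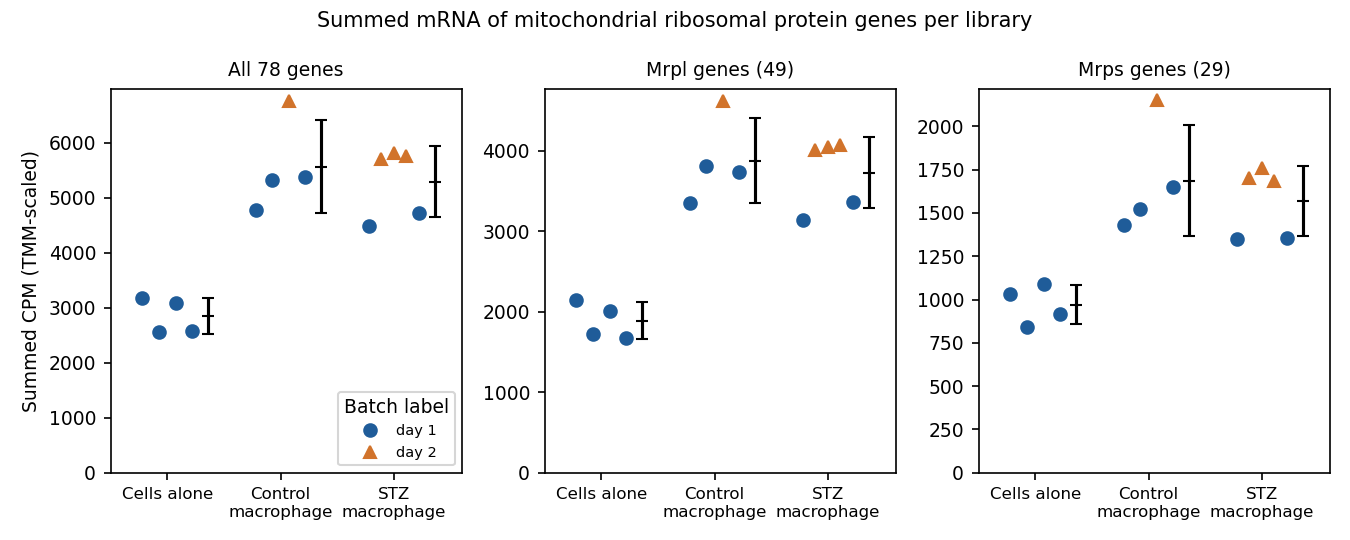
Summed CPM (vertical axis, from 0) of all 78 genes, of the 49 Mrpl genes and of the 29 Mrps genes in each library, with circles for batch day 1, triangles for day 2, and the mean and SD of each group beside its points. Cells alone sit between 2569 and 3184 CPM in the first panel, below all co-culture libraries, and day 2 libraries sit above day 1 libraries of the co-cultures.

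With control macrophages, 30 of the 78 genes were higher than in cells alone and 1 was lower, by edgeR's quasi-likelihood test at an adjusted p below 0.05. Of all genes tested, 23.1% were called higher and 22% lower, while 38.5% of the members were called higher. The count was 21 higher and 1 lower of 49 Mrpl genes, and 9 higher and 0 lower of 29 Mrps genes. At an unadjusted p below 0.05, 38 members were higher and 3 lower, 1 of these an Mrps gene, against 26.3% and 26.4% of all genes. By DESeq2, 34 members were higher and 2 lower, against 25.9% and 24.3% of all genes. In the authors' deposited log2 table, tested with limma, 40 members were higher and 25 lower, against 33.7% and 37% of its genes. The median log2 fold change was 0.69 for the members and −0.13 for all genes tested, and 64 of 78 members were above 0. The 2 groups did not overlap for 32 members that were higher and 2 that were lower, Mrps15 and Mrps35, against 22.2% and 17.7% of all genes tested. Of the 46 members with a bacterial homologue, 20 rose and 0 fell (2 at an unadjusted p below 0.05), and of the 32 without one, 10 rose and 1 fell. In the Mrps18 family only Mrps18c was counted among those with a homologue. Of the 30 calls, 19 were also made under each other setting that was run and without any single library of the 2 groups. Scaling by library totals alone lowered the members' median to 0.37 and that of all genes to −0.45, with 21 members higher and 4 lower, against 18.5% and 29.4% of all genes. The replicate numbers of these 2 groups met the criterion for pairs described under the processing, which the labels do not state. With the replicate block 29 members were higher, 27 of them among the 30, and 0 lower, against 20.9% and 16.4% of all genes.

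Mrpl18, the counterpart of a protein that binds the smallest RNA of the bacterial large subunit, stood at 95.4, 77.8, 161 and 108 CPM in cells alone. In control-macrophage co-culture it stood at 331, 368, 561 and 401 CPM. The lowest of the co-culture libraries was above the highest of the cells alone, and Mrpl18 rose by 1.73 on the log2 scale (SE 0.21, adjusted p = 3.20e-05). Mrpl51, a protein that mitochondria added to the large subunit, was at 37.1, 23.9, 56.4 and 44.9 CPM in cells alone and at 133, 115, 224 and 159.7 CPM with control macrophages. The groups were apart, and the rise was 1.73 (SE 0.24, adjusted p = 8.83e-05).

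Mrpl45 lies where the new chain leaves the ribosome and holds the particle at the inner membrane. It was at 57.3, 13.8, 49.3 and 34.9 CPM in cells alone and at 124, 99.5, 220.1 and 125 CPM with control macrophages. Replicate 2 was the lowest of the cells alone, the groups did not overlap, and the log2 fold change was 1.56 (SE 0.33, adjusted p = 0.00227). Mrpl27, whose bacterial counterpart reaches towards the centre where amino acids are joined, was at 23.2, 16.1, 33.6 and 30.2 CPM in cells alone. With control macrophages it was at 63.0, 71.9, 102 and 78.8 CPM, all above the cells alone, and rose by 1.47 (SE 0.23, adjusted p = 2.15e-04). Mrpl42, added to the ribosome in mitochondria, was at 50.3, 38.0, 79.7 and 79.3 CPM in cells alone and at 149.7, 145, 337 and 201 CPM with control macrophages. Replicate 3, of day 2, was the highest, the groups did not overlap, and Mrpl42 rose by 1.43 (SE 0.24, adjusted p = 3.90e-04). Mrpl33 and Mrpl35, small proteins with bacterial counterparts, rose by 1.41 (SE 0.21) and 1.40 (SE 0.21), also without overlap.

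Mrpl52 and Mrpl28 had log2 fold changes of 1.73 and 1.43 with less replicate support. Mrpl52, a protein without a bacterial counterpart, was at 13.7, 13.9, 3.96 and 1.73 CPM in cells alone and at 37.4, 39.7, 3.51 and 24.3 CPM with control macrophages. The groups overlapped through control-macrophage replicate 3, the SE was 0.64 and the adjusted p was 0.0426. The adjusted p of Mrpl52 was 0.0888 and 0.0674 without replicates 3 and 4 of the cells alone, and 0.100, 0.103 and 0.0574 without replicates 1, 2 and 4 of the co-culture. With the replicate block it was 0.0625. Mrpl28, which has a bacterial counterpart, was at 13.1 to 50.01 CPM in cells alone and at 25.7 to 125 CPM with control macrophages. Its groups overlapped as well, through replicate 3 of the co-culture. Its SE was 0.42 and its adjusted p was 0.0144, or 0.0521 without control-macrophage replicate 2. In the authors' deposited log2 table, by limma, neither was called and the signs were opposite, with −1.36 for Mrpl52 and −0.91 for Mrpl28.

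Among the genes named for the small subunit, Mrps18c was at 41.6, 28.4, 68.4 and 46.7 CPM in cells alone and at 96.2, 90.4, 175 and 122 CPM with control macrophages. The groups were apart, and it rose by 1.18 (SE 0.25, adjusted p = 0.00202). Mrps18a, Mrps18b and Mrps18c are 3 relatives of 1 bacterial protein, and in known structures Mrps18a sits in the large subunit. The log2 fold changes of the other two were 0.57 (SE 0.27, adjusted p = 0.0996) for Mrps18a and 0.37 (SE 0.25, adjusted p = 0.244) for Mrps18b, so 1 of the 3 was called. Mrps18a did pass the test without replicate 1 of the cells alone (adjusted p = 0.0379) and without control-macrophage replicate 3 (0.00891).

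Mrps14, with a bacterial counterpart in the head of the small subunit, was at 111, 60.1, 112 and 96.2 CPM in cells alone and at 171, 165, 295 and 205 CPM with control macrophages. It was higher in all 4 co-culture libraries and rose by 0.96 (SE 0.20, adjusted p = 0.00191). Mrps11 and Mrpl46, which start close to each other on opposite strands, rose by 0.99 (SE 0.19) and 0.96 (SE 0.21). Mrps12, whose bacterial counterpart bears on the accuracy of decoding, was at 31.8, 29.9, 9.30 and 1.90 CPM in cells alone and at 41.8, 51.5, 3.24 and 19.4 CPM with control macrophages. These values overlapped, and its log2 fold change of 0.74 (SE 0.75) was not called.

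Mrpl38, a protein of the large subunit without a bacterial counterpart, was the 1 member called lower with control macrophages. Its levels were 11.5, 53.1, 4.85 and 1.84 CPM in cells alone and 2.03, 4.28, 0.709 and 0.923 CPM with control macrophages. The groups overlapped, and replicate 2 of the cells alone stood far above the other 3. The log2 fold change was −2.61 (SE 0.93, adjusted p = 0.0371), and without that library it was −1.02 (adjusted p = 0.231). Without control-macrophage replicate 1, 2 or 4 the adjusted p was 0.108, 0.0594 and 0.112, and with the replicate block the log2 fold change was −2.18 (adjusted p = 0.0530).

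Mrps24 (−2.603, SE 1.10) and Mrpl23 (−1.84, SE 0.81), both with bacterial counterparts, had the next lowest fold changes and were not called, with adjusted p of 0.0722 and 0.0824. Mrps24 was at 47.2 CPM in replicate 2 of the cells alone and at 1.07 to 2.37 CPM in the other 3, close to the 1.65 to 2.22 CPM of the co-culture. Without that replicate the log2 fold change of Mrps24 was 0.26, while without replicate 1, 3 or 4 it passed the test (adjusted p = 0.0298, 0.0455 and 0.0451), and Mrpl23 passed without replicate 1 (0.0180). Mrps15 and Mrps35 were at 7.98 to 29.5 and 6.38 to 38.1 CPM in cells alone and at 4.37 to 5.14 and 3.27 to 5.98 CPM with control macrophages. These 2 lay lower in all 4 co-culture libraries and were not called (−0.95, SE 0.73, and −0.96, SE 0.78), though Mrps15 passed without control-macrophage replicate 3 (adjusted p = 0.0232). Mrps26 and Mrps2 closed the low end with −1.60 (SE 1.22) and −0.40 (SE 0.77), and Mrps26 was at 1.30 without replicate 2 of the cells alone.

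Mrps30, which sits in the large subunit in known structures despite its name, was at 0.399 to 12.3 CPM in cells alone and at 1.90 to 2.99 CPM with control macrophages, and was not called (−1.09, SE 0.84, adjusted p = 0.311). Mrps36, known as a part of the oxoglutarate dehydrogenase complex rather than of the ribosome, was at 15.3 to 22.02 CPM in cells alone and at 22.3 to 40.9 CPM with control macrophages. Its groups did not overlap, and it was not called (0.47, SE 0.22, adjusted p = 0.0954). Mrpl11, at the base of the stalk that recruits translation factors, rose by 0.92 (SE 0.19). Mrpl12, a protein of the stalk itself, was not called (0.23, SE 0.88), and neither was Mrpl58, a release factor built into the large subunit (−0.07, SE 0.65). The authors' deposited log2 table gave other calls by limma, higher for Mrps30 (2.91) and lower for Mrpl12 (−2.59), Mrpl58 (−3.20) and Mrps12 (−1.97).

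With STZ macrophages, 28 of the 78 genes were higher than in cells alone and 1, Mrpl24, was lower. Of all genes tested, 20.8% were called higher and 22.3% lower. The split was 21 higher and 1 lower of 49 Mrpl genes and 7 higher and 0 lower of 29 Mrps genes. At an unadjusted p below 0.05, 35 members were higher and 1 lower, with 0 Mrps genes lower, against 24.7% and 26.5% of all genes, and DESeq2 called 37 higher and 1 lower, against 26.3% and 22.9%. The members' median log2 fold change was 0.69, that of all genes tested was −0.05, and 64 of 78 members were above 0. The groups were apart for 28 members, all higher, against 21.7% of all genes. Both co-cultures were compared with the same 4 libraries of cells alone. The count of higher members was 17 when only the 2 groups were fitted, against 17.8% of all genes in that fit. It was 43 without replicate 2 of the cells alone and 16 without STZ-macrophage replicate 5. The shares of all genes under these omissions are not given here, so whether the members moved apart from them cannot be read. In the authors' deposited log2 table limma called 32 members higher, 10 of them among the 28, against 29.4% of its genes. Of the 28 calls, 4 were made under each other setting that was run and without any single library of the 2 groups, namely those of Mrpl14, Mrpl18, Mrpl20 and Mrpl51.

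Mrpl18 was at 272, 396, 459.7, 429 and 285 CPM with STZ macrophages, above the 77.8 to 161 CPM of the cells alone in all 5 libraries. Its log2 fold change was 1.33 (SE 0.22, adjusted p = 4.08e-04). Mrpl51 was at 79.7, 139, 159, 145 and 87.2 CPM, also without overlap, and rose by 1.06 (SE 0.25, adjusted p = 0.00460). In both genes the libraries of day 1, replicates 1 and 5, were the lower ones. Mrpl14, which lies at the face between the subunits, was at 13.3 to 17.1 CPM in cells alone and at 32.7 to 39.8 CPM with STZ macrophages, on both days. It rose by 1.32 (SE 0.23, adjusted p = 4.91e-04), and Mrpl20, with a bacterial counterpart, by 1.20 (SE 0.25).

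The largest fitted fold changes with STZ macrophages belonged to members with wide errors. The fit holds the batch day constant, and for each member of this paragraph its fold exceeded the ratio of the group means. Mrpl52 had a fitted fold of 7.94, with means of 36.7 CPM with STZ macrophages and 8.32 CPM in cells alone. For Mrpl17 the fitted fold was 4.69, with means of 84.6 and 26.9 CPM. In each of these members control-macrophage replicate 3, the only day 2 library of its group, was the lowest of the group. Mrpl52 was at 39.3, 32.4, 23.7, 39.4 and 48.6 CPM, above all 4 libraries of cells alone, and rose by 2.99 (SE 0.78, adjusted p = 0.00777). Mrps6, whose bacterial counterpart stands at the edge of the small subunit, was at 50.2, 28.5, 9.57, 23.1 and 55.1 CPM, against 10.7, 15.1, 4.27 and 2.603 CPM in cells alone. Replicates 1 and 5 were the highest, replicate 3 overlapped the cells alone, and the log2 fold change was 2.97 (SE 0.75, adjusted p = 0.00642). Mrps22, Mrps28, Mrpl17, Mrpl28, Mrpl36 and Mrpl2 followed with log2 fold changes of 2.02 to 2.49, SE of 0.49 to 0.85 and adjusted p of 0.00356 to 0.0435. The call of Mrps28 was lost without replicate 3 or 4 of the cells alone or without any 1 of STZ-macrophage replicates 2 to 5, with adjusted p of 0.0537 to 0.0644. That of Mrps22 was lost without STZ-macrophage replicate 1 or 5 (0.0639 and 0.0693). In the authors' deposited log2 table, limma called neither Mrpl52 (0.49) nor Mrps6 (0.77), and Mrps28 (−0.30), Mrpl17 (−0.52) and Mrpl36 (−0.84) were below 0. Mrpl54 was not called with a fold change of similar size (2.47, SE 1.07, adjusted p = 0.0791), and was called without replicate 2 or 4 of the cells alone (0.0469 and 0.0431).

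Mrpl24, whose bacterial counterpart starts the assembly of the large subunit, was at 111, 67.2, 139.8 and 160.1 CPM in cells alone and at 62.7, 106, 119.9, 107 and 69.9 CPM with STZ macrophages. The groups overlapped, and the log2 fold change was −0.87 (SE 0.26, adjusted p = 0.0167). The call was lost without replicate 3 of the cells alone (−0.57, adjusted p = 0.131) or without STZ-macrophage replicate 1 (adjusted p = 0.0602), and was not made in the authors' deposited log2 table by limma (−0.03). Of the exonic bases of Mrpl24, 38.05% overlap a gene on the other strand, Rrnad1, and the library kit did not keep the strand.

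The fit holds the batch day constant, and all cells alone were of day 1. The fitted rise can thus be larger than that of the group means, as for Mrpl52, or smaller, as for Mrps18b. The mean of Mrps18b was 77.7 CPM with STZ macrophages and 45.0 CPM in cells alone, yet its log2 fold change was −0.21 (SE 0.28). Its STZ-macrophage libraries of day 1 stood at 35.2 and 37.9 CPM and those of day 2 at 99.7 to 109.5 CPM. Mrps18a rose by 0.93 (SE 0.32, adjusted p = 0.0305), a call lost without replicate 4 of the cells alone (adjusted p = 0.0663). In the authors' deposited log2 table, by limma, Mrps18a was at −0.14 and not called, and Mrps18b was called higher at 1.06. Mrps18c did not pass the test (0.43, SE 0.27, adjusted p = 0.212), though it did without replicate 3 of the cells alone (0.00964).

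Mrpl11 was not called (0.47, SE 0.21), but leaving out replicate 1, 2 or 3 of the cells alone brought its adjusted p to 0.0371, 0.0164 and 0.0296. Mrpl12 (1.75, SE 0.92) was called without replicate 2 of the cells alone (adjusted p = 0.0449). Mrps36 (0.07, SE 0.23), Mrpl58 (1.17, SE 0.78), Mrps12 (1.99, SE 0.95) and Mrps30 (−1.25, SE 0.90) were not called. At the low end, also not called, stood Mrps24 (−1.82, SE 1.07), Mrpl23 (−1.55, SE 0.85), Mrpl38 (−0.57, SE 0.88), Mrps31 (−0.35, SE 0.30) and Mrpl32 (−0.34, SE 0.24). Of these, Mrpl23 passed without replicate 1 of the cells alone (adjusted p = 0.0411) and stood at 0.11 without replicate 2.

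**Figure D3:**
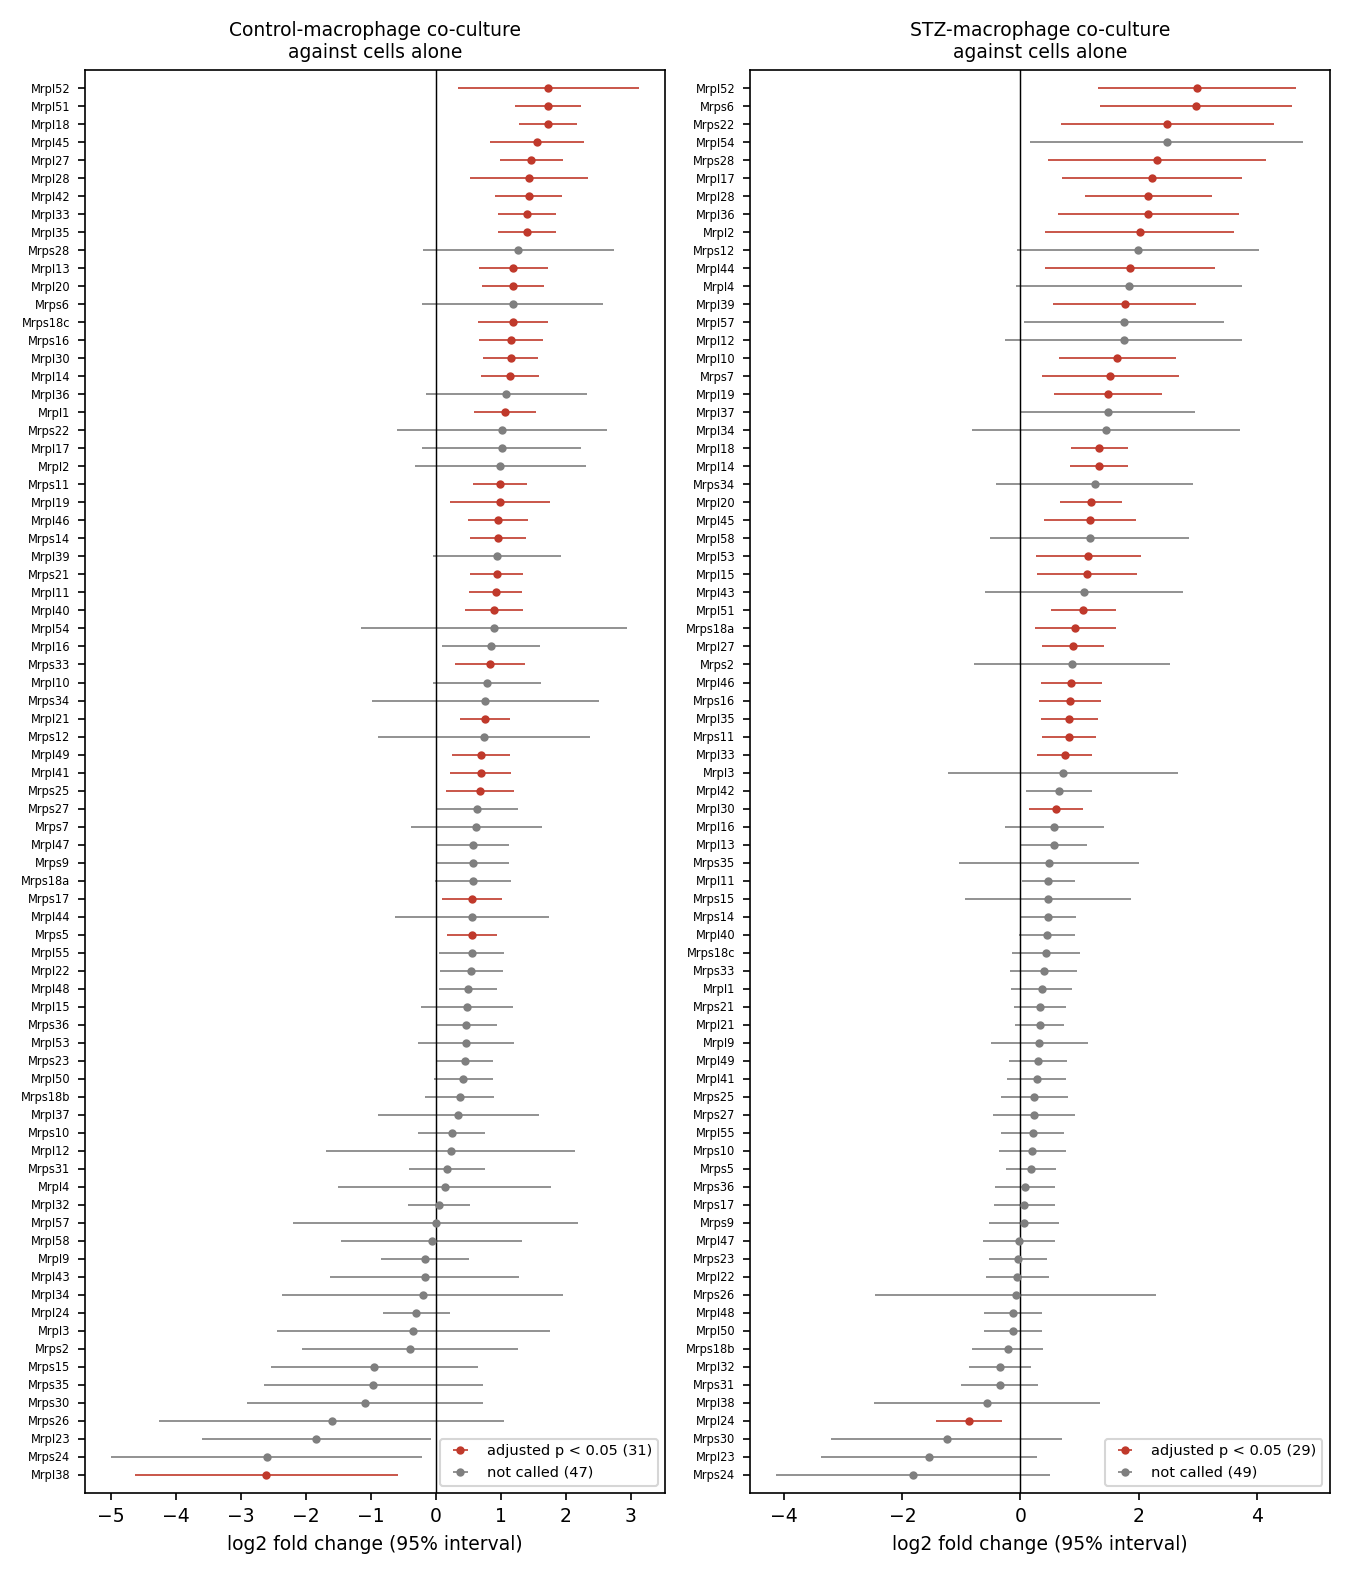
Log2 fold change (horizontal axis) with its 95% interval for each of the 78 genes in control-macrophage (left) and STZ-macrophage (right) co-culture against cells alone, ordered by value, with called genes in red. Called genes number 31 on the left and 29 on the right, where the highest value, 2.99 for Mrpl52, has a wide interval.

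The effect of the macrophages' STZ exposure was asked by comparing the co-cultures with each other. Of the 78 genes, 0 were called higher and 0 lower by edgeR, and DESeq2 also called 0. Of all genes tested, 0.152% were called higher and 0.171% lower by edgeR, and 2.8% and 1.47% by DESeq2. At an unadjusted p below 0.05, 4 members were higher and 22 lower, against 7.99% and 14.8% of all genes. The median log2 fold change was −0.13 for the members and −0.13 for all genes, and 37 of 78 members were above 0. The groups overlapped for all 78 members, while 2.46% and 5.08% of all genes were apart in the higher and lower direction. The 95% interval lay within a 2-fold change either way for 24 members, wholly below 0 for 22 and wholly above 0 for 4. Its width was 0.756 to 4.63 on the log2 scale with a median of 1.2, so in the members with wide intervals a 2-fold difference was not detectable with these libraries.

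The lowest fold changes were those of Mrpl42 (−0.78, 95% interval −1.27 to −0.28), Mrps18c (−0.75, −1.27 to −0.24), Mrpl1 (−0.70, −1.17 to −0.24), Mrpl51 (−0.67, −1.16 to −0.17) and Mrpl33 (−0.66, −1.08 to −0.24), with adjusted p of 0.146 to 0.162. Mrpl48, Mrpl13 and Mrps21 followed with −0.62, −0.62 and −0.61. Mrpl42 was at 93.1, 174, 205, 193 and 103 CPM with STZ macrophages, against the 145 to 337 CPM with control macrophages. The groups overlapped, and in both of them the libraries of day 2 were the highest.

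The highest fold changes were those of Mrpl38 (2.04, 0.20 to 3.88), Mrps6 (1.79, 0.28 to 3.30), Mrpl57 (1.75, 0.17 to 3.33), Mrpl4 (1.70, −0.11 to 3.504), Mrpl34 (1.65, −0.47 to 3.76) and Mrpl54 (1.58, −0.58 to 3.73). Mrps26 and Mrpl12 followed with 1.52 and 1.51. Mrpl57, a protein added in mitochondria, was at 7.23, 20.8, 2.68 and 3.13 CPM with control macrophages and at 53.0, 5.71, 2.77, 5.61 and 54.8 CPM with STZ macrophages. The high libraries were the 2 of day 1 with STZ macrophages, while the other 3 lay among the control-macrophage values. Fitting the 2 co-cultures without the cells alone called Mrpl38, Mrpl57 and Mrps7 higher and 7 members lower, namely Mrpl1, Mrpl13, Mrpl24, Mrpl27, Mrpl42, Mrpl51 and Mrps18c. Of all genes that fit called 10.1% higher and 8.06% lower, so the members' share was below that of all genes in the higher direction and near it in the lower. Without control-macrophage replicate 3, 1 member, Mrps15, was called higher.

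Of the members given in each comparison, Mrpl11 (−0.45, SE 0.19), Mrps18b (−0.58, SE 0.25), Mrps36 (−0.39, SE 0.21) and Mrps30 (−0.16, SE 0.80) were below 0. Mrps18a (0.36, SE 0.30), Mrpl58 (1.24, SE 0.74) and Mrps12 (1.25, SE 0.92) were above it, and none of these 7 was called. T cell markers summed to 9002 to 12253 CPM with STZ macrophages and to 11987 to 22316 CPM with control macrophages, and their part in these differences was not tested.

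**Figure D4:**
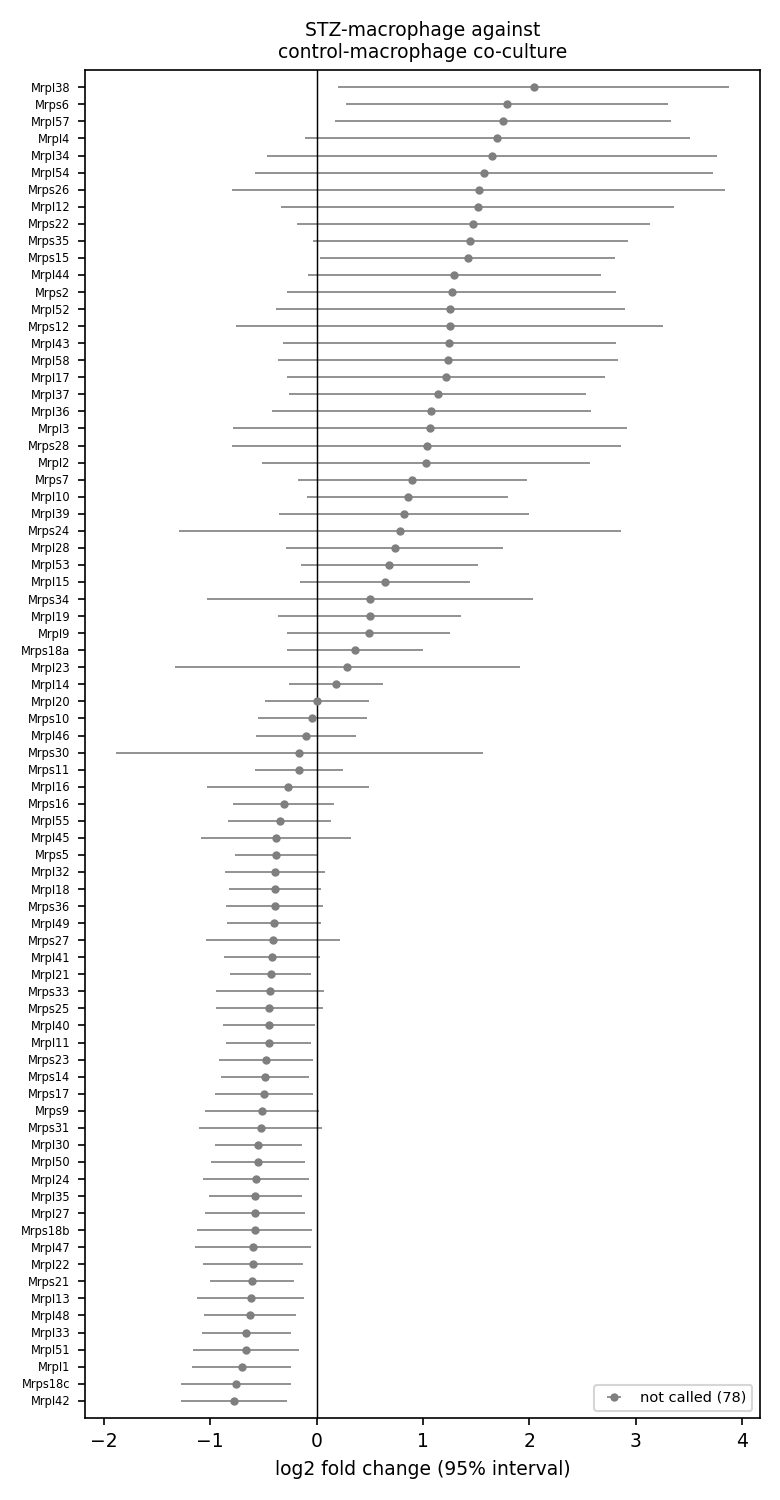
Log2 fold change (horizontal axis) with its 95% interval for each of the 78 genes between STZ-macrophage and control-macrophage co-culture, ordered by value. Of the 78 genes 0 were called, and intervals are wide among the genes with the highest values, from Mrpl38 at 2.04 downwards.

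The difference between the co-cultures was also taken within each batch day, with 1 control-macrophage library on day 2 that is assumed to vary like the other groups. On day 1, 0 members were called, with 4 higher and 8 lower at an unadjusted p below 0.05, and 0.215% of all genes were called, or 16.3% unadjusted. On day 2, 0 members and 0% of all genes were called, with 16 members higher and 6 lower at an unadjusted p below 0.05, against 14% of all genes. The test of the difference between the days called 0 members and 0.00634% of all genes. At an unadjusted p below 0.05 the log2 difference was higher on day 2 for 12 members and lower for 2, against 9.82% of all genes in either direction. DESeq2 called 5 members and 2.52% of all genes for it. The difference was higher on day 2 for Mrpl39 (2.53, adjusted p = 0.0206), Mrpl17 (2.95, adjusted p = 0.0478), Mrpl9 (1.67, adjusted p = 0.0287) and Mrps18a (1.44, adjusted p = 0.0294) and lower for Mrps15 (−3.32, adjusted p = 0.0235), and all but Mrps18a of these were named after their values were seen. Mrpl42 gave −0.75 (SE 0.31) on day 1 and −0.82 (SE 0.37) on day 2, and Mrpl51 gave −0.71 (SE 0.31) and −0.60 (SE 0.37). The sign of both was the same on either day. Both had been named for low fold changes in the fit over both days, which favours such a sign, so it adds no support. Mrpl52 gave 0.38 (SE 0.68) and 3.18 (SE 1.07).

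The members varied unequally among the 4 libraries of cells alone, which carry the same labels and batch day. The highest library was over 3 times the lowest for 32 members and within 3 times for 46. Of the tested genes for which this ratio could be taken, 8040 were over 3 times and 7282 within. A spread of this size was thus common over all genes and not particular to the members. The ratio exceeded 2 for 53 members and 10 for 14. Of the 32, 14 were highest in replicate 1, 17 in replicate 2 and 1 in replicate 4, and 22 were lowest in replicate 4. This division was made after the values were seen, and no test was applied to it. The summed CPM of the 32 was 781, 927, 329 and 221 in cells alone, 896, 1248, 468 and 657 with control macrophages, and 1460.3, 1113, 752, 992 and 1417 with STZ macrophages. Replicates 1 and 2 of the cells alone, control-macrophage replicate 2 and STZ-macrophage replicates 1 and 5 were thus the high libraries of their groups. The other 46 summed to 2403, 1642, 2765 and 2364 CPM in cells alone and to 3883, 4083, 6302 and 4729 CPM with control macrophages. With STZ macrophages they summed to 3023, 4597, 5058, 4768 and 3309 CPM. For these 46 the high libraries were others, control-macrophage replicate 3 among them, and each co-culture library was above each library of cells alone.

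Mrpl12, which also binds the mitochondrial RNA polymerase, is an example of the wide members. It was at 31.7, 42.4, 3.13 and 2.31 CPM in cells alone, at 10.6, 46.2, 6.66 and 6.29 CPM with control macrophages and at 75.5, 16.5, 7.22, 15.8 and 77.2 CPM with STZ macrophages. All 3 groups overlapped, and STZ-macrophage replicates 1 and 5 were the highest of all libraries. Mrpl58 was at 71.4, 68.3, 20.3 and 8.86 CPM in cells alone and at 47.6, 74.9, 5.03 and 18.4 CPM with control macrophages, with replicate 2 the highest and replicate 3 the lowest of the co-culture. Mrpl14, in contrast, was at 13.3 to 17.1 CPM in the 4 libraries of cells alone. With control macrophages 27 of the 46 narrow members and 3 of the 32 wide ones were called higher, and with STZ macrophages these counts were 16 and 12. Of all tested genes split by the same rule, 27.01% of the narrow and 15.6% of the wide were called higher with control macrophages, and 18.9% and 18.3% with STZ macrophages. The spread that defines the split is also part of the error in these comparisons. Between the co-cultures, 8 of the 46 narrow members and 29 of the 32 wide members were above 0, with medians of −0.45 and 1.24. Over all tested genes split by the same rule, the medians were −0.33 for the narrow and 0.26 for the wide genes. The wide members had a median GC content of 67.5% in the first 200 bases of the transcript and the narrow members 60.3%. Median transcript length was 1302 and 1371.5 bases, and the 4 libraries held 28881036, 17312119, 39775134 and 31186361 counts. The part of these properties in the spread was not tested.

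**Figure D5:**
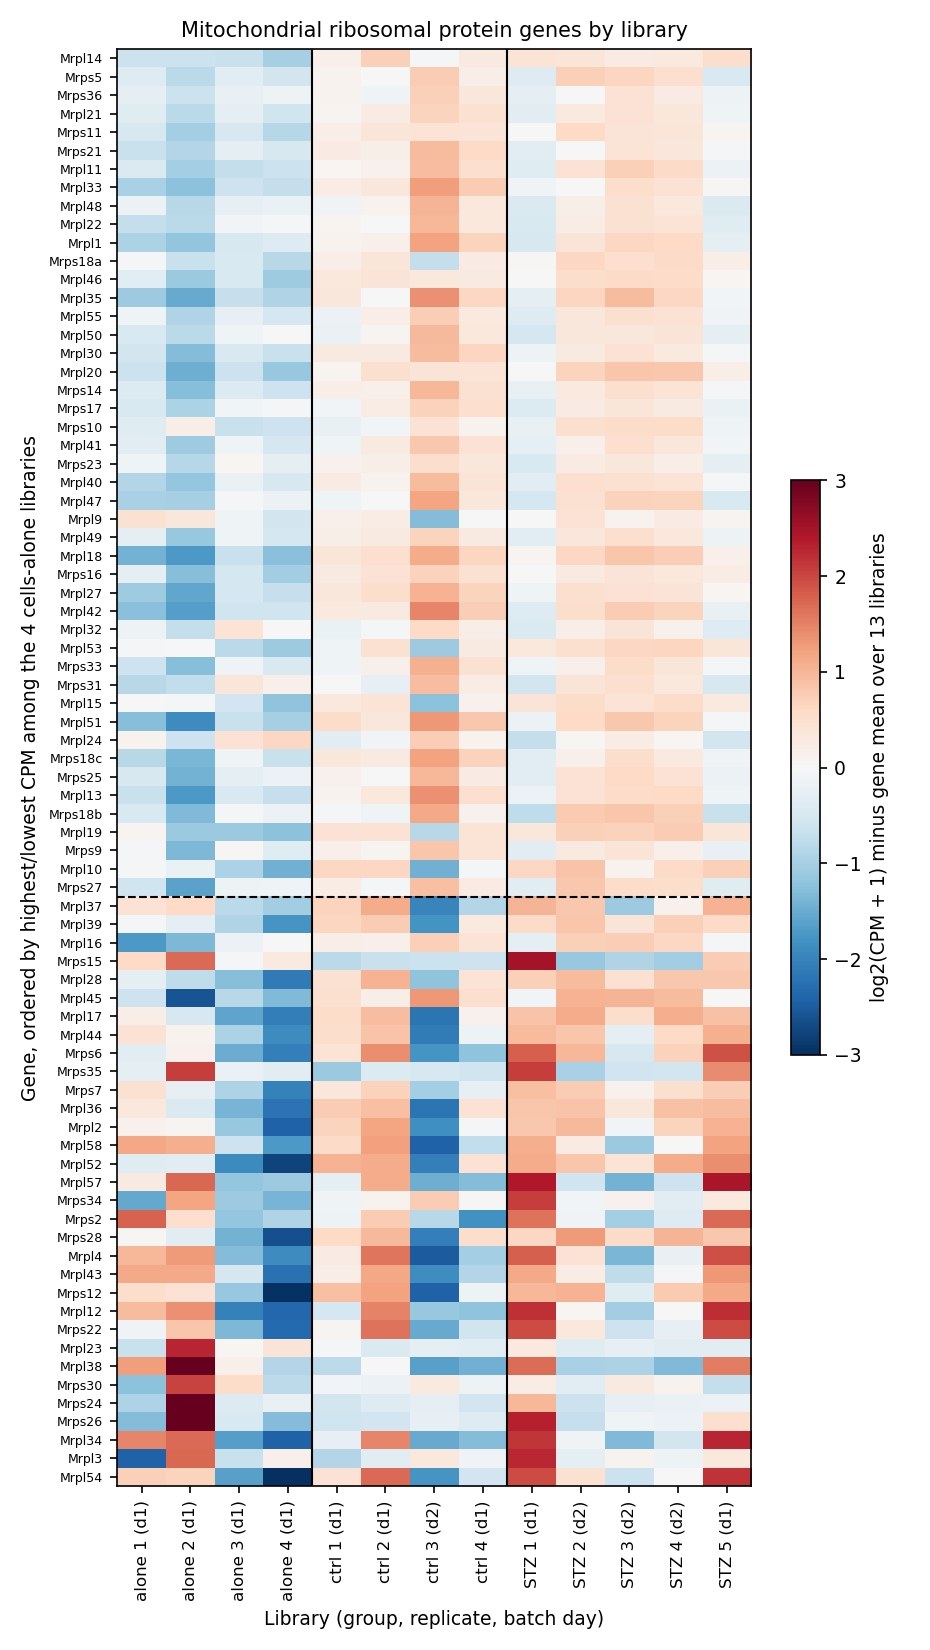
Log2(CPM + 1) of each of the 78 genes (rows) in each of the 13 libraries (columns, with batch day), minus the gene's mean over the libraries, ordered by the ratio of highest to lowest CPM among the cells alone. On one side of the dashed line, for the 32 genes over 3-fold, the high libraries are cells-alone replicates 1 and 2, control-macrophage replicate 2 and STZ-macrophage replicates 1 and 5, while for the other 46 the cells alone are low as a group.

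To compare levels between members, CPM was divided by the exonic length of each gene in kilobases (GENCODE vM21, GRCm38). On this scale Mrpl33 had the highest level in each of the 3 groups, 168 ± 31.7 CPM per kb (SD, n = 4) in cells alone, 505 ± 174 CPM per kb (SD, n = 4) with control macrophages and 357 ± 71.4 CPM per kb (SD, n = 5) with STZ macrophages. With control macrophages Mrpl18 followed with 341 ± 83.3 CPM per kb, Mrpl42 with 307 ± 132 CPM per kb and Mrps21 with 246 ± 64.0 CPM per kb. Neighbours from Mrpl18 to Mrps21 differed by less than either SD, and the next, Mrpl20, was at 134 ± 15.3 CPM per kb. The lowest were Mrpl23, Mrps30 and Mrps26, with 0.926, 0.671 and 0.513 CPM per kb. On this scale the estimated levels of the members were thus far from equal. The length takes in the exons of all annotated coding transcripts, whichever are made, and its part in these differences was not tested.

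All 78 genes are protein-coding in GENCODE vM21, and chromosome 11 holds the most, 11 of them. Mrpl18 spans chr17:12911349-12916345 on the minus strand and Mrpl51 spans chr6:125191801-125196269 on the plus strand (GRCm38). The RefSeq promoter windows of both lie wholly within these spans, so their RefSeq and GENCODE starts differ. The members called lower, Mrpl38 and Mrpl24, span chr11:116131817-116138868 on the minus strand and chr3:87919506-87923672 on the plus strand. Within 1000 bases before to 500 bases after their start, 26 of the 78 (33.33%) have the start of another protein-coding gene read in the opposite direction, compared with 2092 of 21951 protein-coding genes (9.53%). Mrps11 and Mrpl46 are such a pair within the list, and by its GENCODE start Mrpl51 begins 100 bases from Ncapd2, a condensin subunit. Where genes overlap, reads could not be told apart by strand. Overlaps on the other strand cover 11.57% of the exonic bases of Mrpl18 (Tcp1), 16.38% of Mrps11 (Mrpl46), 15.2% of Mrpl12 (Gm16755) and 75.58% of Mrps25 (Nr2c2). For Mrps18b (Gm16279) and Mrps34 (Mapk8ip3) they cover 59.13% and 62.75%. On the same strand, all exonic bases of Mrpl53 lie in Gm42688, and 37.03% of Mrpl33 is shared with Gm43809, 36.05% of Mrps6 with Gm49711 and 18.51% of Mrps18c with Gm43511, so levels of these members are uncertain to that extent. In 43 members at least 1 deposited value was not a whole number, and in 21 no value was whole, as counting programs write them that divide a read between features. The 6 excluded pseudogene rows summed to 41.1 to 90.4 CPM in cells alone, 114 to 215 CPM with control macrophages and 77.3 to 141 CPM with STZ macrophages.

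Other genes of mitochondrial translation were taken as lists beside the members. Over all genes tested, 23.1% were called higher and 22% lower with control macrophages, and 20.8% and 22.3% with STZ macrophages. Whether a list differs from these shares was not tested. Of 26 genes for assembly of the mitochondrial ribosome, 2 were higher (7.69%) and 8 lower (30.8%) with control macrophages. With STZ macrophages 0 were higher (1 at an unadjusted p below 0.05) and 7 lower (26.9%). Mettl17, an assembly factor of the small subunit, stood at a mean of 188 CPM in cells alone, 52.4 CPM with control macrophages and 41.4 CPM with STZ macrophages. It fell by 1.86 (SE 0.20) and by 2.25 (SE 0.23) on the log2 scale. Fastkd2, an RNA-binding protein of mitochondrial RNA granules, rose by 1.36 (SE 0.28) with control macrophages, and Dhx30, an RNA helicase of the same granules, fell by 0.77 (SE 0.19). With STZ macrophages Mterf3 and Rpusd4, which act in the making of the large subunit and its RNA, fell by 1.07 (SE 0.23) and by 1.12 (SE 0.25).

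Of 16 translation factors and related proteins, 1 was higher and 3 lower with control macrophages, and 2 were higher and 3 lower with STZ macrophages. These were 6.25% and 18.75%, and 12.5% and 18.75%, all below the shares of all genes tested. Slirp, which stabilises mitochondrial mRNAs, rose by 1.16 (SE 0.23) with control macrophages. Mtif3, an initiation factor, fell by 0.89 (SE 0.21) and by 0.96 (SE 0.24), Guf1, an elongation factor, fell by 1.49 (SE 0.34) and by 1.64 (SE 0.37), and Rmnd1 fell by 1.14 (SE 0.33) and by 1.86 (SE 0.38). Tsfm and Gfm1, elongation factors named after their values were seen, were the 2 that rose with STZ macrophages, by 2.88 (SE 0.74) and 1.88 (SE 0.70). The 7 listed ribosomal proteins without an Mrp symbol include Ict1 and Mrp63, older symbols of Mrpl58 and Mrpl57 with no row of their own. Of the 5 tested, Chchd1 was higher with control macrophages (0.75, SE 0.18) and Aurkaip1 with STZ macrophages (1.83, SE 0.63), and 0 were lower (0 and 1 at an unadjusted p below 0.05).

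Of 10 genes for transcription and replication of mitochondrial DNA, 1 was higher and 5 lower with control macrophages. With STZ macrophages 0 were higher (0 unadjusted) and 4 lower. Of all genes tested, 23.1% and 20.8% were higher and 22% and 22.3% lower in the same order. Polg, the catalytic subunit of the mitochondrial DNA polymerase, fell by 2.80 (SE 0.52) and by 2.36 (SE 0.52), from a mean of 86.3 CPM to 10.7 and 13.3 CPM. Of the 8 tested regulators of mitochondrial biogenesis, 3 were lower in each co-culture, Ppargc1b (−2.17 and −1.87), Yy1 (−1.25 and −1.61) and Esrra (−1.90 and −1.84). The 1 that was higher was Myc, with STZ macrophages (2.71, SE 0.80), and it was named after its values were seen. Nrf1 (−0.35 and 0.35) and Gabpa (0.26 and 0.33), whose motifs were searched in the promoters, were not called in either co-culture. Of the 13 mitochondrially encoded mRNAs, 0 were higher and 2 lower with control macrophages (mt-Nd2 and mt-Nd6) and 0 higher and 1 lower with STZ macrophages (mt-Nd2), with the same counts at an unadjusted p below 0.05. Between the co-cultures, 0 genes of any of these lists were called, against 0.152% higher and 0.171% lower of all genes. At an unadjusted p below 0.05, 0 to 2 per list were higher and 0 to 3 lower, against 7.99% and 14.8% of all genes.

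The proteins of the cytosolic ribosome are the other family of this kind in the cell. Of 87 such genes, 45 were higher (51.7%) and 4 lower (4.6%) with control macrophages, with a median log2 fold change of 0.71. With STZ macrophages 18 were higher (20.7%) and 5 lower (5.75%), with a median of 0.32. Of all genes tested, 23.1% and 20.8% were higher and 22% and 22.3% lower in the same order. With STZ macrophages the share that was higher was thus near that of all genes. The mitochondrial ribosomal protein genes had 30 (38.5%) and 28 (35.9%) higher of 78 in the same comparisons, with medians of 0.69 in both. Whether the 2 families differ in their response was not tested.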

How the data were processed

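Bulk RNA-seq of sorted CD4+ T cells was read from the deposited table of estimated counts, one value per gene and library, which the authors made on GRCm38, per the submitters' processing notes. The names of aligner, counter and annotation were not given in the sources used here, and 11.0% of the values were not whole. Per the labels' protocols, 10 ng of RNA (RIN above 8.0) was made into libraries with a kit that does not keep the strand and sequenced as pairs of 150 bases. A second deposited table holds log2 values of 12236 genes, among them the 78 members. The processing notes name DESeq2 without a version.

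Estimated counts were rounded, low genes removed with filterByExpr, and libraries scaled by TMM. edgeR's quasi-likelihood test (edgeR 4.0.16, R 4.3.3) was fitted over all 13 libraries with group and batch day as terms, and p-values were adjusted over 15781 genes by Benjamini and Hochberg. The fit was also run on simulated counts. These held no effect of the batch day, so they do not test how the fit handles it, and no result is drawn from them here. Genes with an adjusted p below 0.05 were called, intervals are 95% intervals of the fit, and 3 counts correspond to 0.0490 to 0.173 CPM. DESeq2 1.42.0, limma 3.58.1 on the log2 table, other scalings, filters and designs, and leaving out each library were alternatives. The interaction of group and day was fitted with 1 mean per group and day.

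Named were, per comparison, 8 members from either end of the log2 fold changes, called or not, and 9 members in each comparison, Mrpl11, Mrpl12, Mrpl58, Mrps12, Mrps18a, Mrps18b, Mrps18c, Mrps30 and Mrps36, with any member called between the co-cultures. From other lists up to 3 genes with the smallest p were named. Other genes whose values are given were chosen after the values were seen. The members and lists were chosen with earlier results of these data known.

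The labels do not state that replicate numbers pair the samples. Deviations from the group means correlated at 0.184, 0.352, 0.282 and 0.161 for same-numbered cells alone and control-macrophage libraries, which were taken as paired because each was over 0.1. The reported fit holds no term for these pairs, which entered only as the replicate block among the alternatives. The libraries numbered 3 were of day 1 in cells alone and of day 2 in control-macrophage co-culture. Some pairs with different numbers reached similar or higher values, such as 0.433 for cells alone 4 with control-macrophage 3, so the numbers do not single out 1 partner for each library. The correlations were −0.415 to 0.331 with STZ-macrophage libraries against cells alone and −0.202 to 0.474 between the co-cultures, which were not. The highest correlation between 2 libraries was 0.992, so none was taken as a duplicate.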

Additional observations from a re-analysis of the deposited data

Results flagged for a closer look

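In each group of 4 or 5 libraries, the distance of the highest or lowest library to its nearest neighbour was set against the whole range (Dixon's ratio) for 32 genes and sums, 96 groups in all. For normal values of genes chosen without regard to them, chance flags about 1 in 20 groups. Several of these genes were named for their fold changes in the same libraries, so that rate is no measure here. In all, 8 values were flagged. Of these, 3 lay in control-macrophage libraries. Mrpl12, the stalk protein, stood at 46.2 CPM in replicate 2, with the next library of the group at 10.6 CPM. Mrps18b stood at 134 CPM in replicate 3, with the next at 66.6 CPM, and Mrps30 stood at 2.99 CPM in that replicate, with the next at 2.07 CPM. In the cells alone, replicate 2 held Mrps24 at 47.2 CPM (next 2.37 CPM) and Mrps35 at 38.1 CPM (next 7.04 CPM), and replicate 4 held Mrpl14 at 13.3 CPM, below the next lowest at 16.7 CPM. In STZ-macrophage co-culture, replicate 1 held Mrps15 at 52.6 CPM (next 14.96 CPM) and Mrps24 at 6.83 CPM (next 2.47 CPM).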

How the results depend on the processing

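For control-macrophage co-culture against cells alone, 21 to 40 members were called higher over the other settings and 24 to 37 when 1 library was left out. The share of all genes called higher moved as well. It was 23.1% as reported, 18.5% with library totals only, 20.9% with the replicate block and 25.9% with DESeq2. In the deposited log2 table it was 33.7% of its genes. The count of lower members, 1 as reported, was 4 with library totals only, 2 with DESeq2, 0 without a filter on low counts, 2 without the batch day, 0 with day 1 libraries only and 0 with the replicate block. It was 25 in the deposited log2 table by limma, and 0 to 3 with 1 library left out. With library totals only, the members' median was 0.37. For STZ-macrophage co-culture against cells alone, the count of higher members, 28 as reported, was 17 with only the groups compared and 8 with the replicate block, and 16 to 43 with 1 library left out. The replicate numbers of these 2 groups were not taken as pairs. Of all genes, 20.8% were called higher as reported and 17.8% with only the groups compared. The shares under the replicate block and the omissions are not given here, so whether the members moved apart from all genes cannot be read. The count of lower members, 1 as reported, was 0 without a filter, without the batch day, with only the groups compared, with day 1 libraries only and with the replicate block, 2 in the deposited log2 table, and 0 to 2 with 1 library left out. The median, 0.69 as reported, was 0.97 both without a filter and with day 1 libraries only, and 0.62 to 0.96 with 1 library left out. Between the co-cultures, fitting only the groups compared gave 3 higher and 7 lower members, against 10.1% and 8.06% of all genes in that fit. With 1 library left out 0 to 1 members were higher, and the replicate block gave 0 and 0. For the difference between the days DESeq2 called 5 members, against 2.52% of all genes. The replicate block changed no other count by over 1.5 times.

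In the deposited log2 table, 3 of the 30 members called higher with control macrophages and 11 of the 28 called higher with STZ macrophages were below 0. Only named members called as reported or in that table are listed here for a turned sign. With control macrophages they were Mrpl52 (−1.36), Mrpl28 (−0.91), Mrps30 (2.91), Mrpl12 (−2.59) and Mrps12 (−1.97). With STZ macrophages they were Mrps28 (−0.30), Mrpl17 (−0.52), Mrpl36 (−0.84), Mrps30 (2.66), Mrps31 (1.20), Mrps18b (1.06) and Mrps18a (−0.14). Of the calls of higher members as reported, 25 of 30 and 10 of 28 were also made in that table. The cause was not tested. TMM left the median of all genes at −0.13, −0.05 and −0.13 in the 3 comparisons, RLE at −0.08, 0.11 and −0.03, and library totals at −0.45, −0.17 and 0.07. Intervals cover the spread between these libraries, and for members of a few CPM the depth limits what can be seen.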
